A study of Caenorhabditis elegans with 15 samples.

Results

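The 9 genes described here are heat-inducible chaperone genes of Caenorhabditis elegans, out of 46911 genes in a table of counts from starved first-stage larvae (L1s) that lack or carry altered EFF-1, the protein that fuses most epidermal cells. They are the small heat shock genes hsp-16.1, hsp-16.11, hsp-16.2, hsp-16.41, hsp-16.48 and hsp-16.49 and the HSP70 genes F44E5.4, F44E5.5 and hsp-70. They were chosen by name, because hsp-16.48 and F44E5.4 had been seen to differ strongly between groups of this series. Their differences between groups are therefore given as a description, with standard errors and calls but no p-values.

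Whole L1s were sequenced in 5 groups of 3 libraries, 15 in all. The group eff-1(P37Stop), a CRISPR allele with stop codons early in eff-1, was grown with a WT group that is called WT batch 2. The groups eff-1(S441L), allele oj55, and eff-1(P183L), allele hy21, were grown in another experiment with a WT group called WT batch 1. In every group, embryos from bleached adults of strains kept at 22°C hatched and arrested without food in M9 buffer for 24 h, and polyA RNA was taken from whole animals. None of the groups was heat shocked in the protocols given. Each library of a group started from its own plate.

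The strains limit what the groups can show. S441L and P183L came from classical mutagenesis, may hold other mutations, and carry the transgene jcIs1, which holds ajm-1::GFP, unc-29(+) and the dominant rol-6(su1006). P37Stop was made in animals carrying kuIs46 (ajm-1::GFP with an unc-119(+) copy) and bqSi640, which drives tagged his-58 in the epidermis from the dpy-7 promoter. The WT worms of the first experiment were N2. Transcripts of unc-119 averaged 1062 ± 65.4 CPM in P37Stop and 844 ± 40.5 CPM in WT batch 2, but in S441L, P183L and WT batch 1 they averaged 24.96 ± 0.466, 53.1 ± 1.35 and 28.1 ± 0.673 CPM (SD, n = 3 each). WT batch 2 thus stood with P37Stop and apart from WT batch 1. CPM here are counts relative to the TMM-scaled size of a library, with the scaling computed over all 15 libraries. The targeted gene, eff-1, averaged 18.4 ± 1.60 CPM in P37Stop and 26.9 ± 2.65 CPM in WT batch 2 (SD, n = 3 each). In the other experiment it averaged 32.1 ± 1.85 CPM in S441L and 33.0 ± 2.18 CPM in P183L, against 28.7 ± 2.22 CPM in WT batch 1 (SD, n = 3 each).

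Libraries held 35858225 to 47820216 counts. Markers of differentiated tissue were detected in every group. In P183L the summed level of 5 body wall muscle markers was 2511 to 2609 CPM, against 17853 to 20263 CPM in WT batch 1, that of 5 intestine markers 509.8 to 515 CPM against 2646 to 3001 CPM, and that of 5 neuron markers 316 to 319.8 CPM against 2271 to 2385 CPM. The 5 epidermis markers went the other way, with 724 to 738 CPM in P183L against 345 to 376 CPM in WT batch 1. In S441L the neuron markers stood at 1086 to 1102 CPM against 2271 to 2385 CPM in WT batch 1, and the muscle markers at 14976 to 15447 CPM against 17853 to 20263 CPM. In P37Stop the intestine markers stood at 1218 to 1433 CPM against 2004 to 2327 CPM in WT batch 2, the muscle markers at 11121 to 13368 CPM against 14923 to 16704 CPM, and the neuron markers at 1813 to 1930 CPM against 2209 to 2434 CPM. The 8 maternal and early embryo markers summed to 597 to 603 CPM in P183L and 108 to 111 CPM in S441L, against 67.6 to 71.4 CPM in WT batch 1, and to 94.8 to 183.2 CPM in P37Stop, against 47.8 to 86.8 CPM in WT batch 2. None of these markers was at 0 in all libraries of a group. Their part in the chaperone levels was not tested. In whole animals, fewer cells of a type and less RNA per cell cannot be told apart.

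Cells answer heat and other protein-damaging stress through the transcription factor HSF-1, which trimerizes and binds heat shock elements upstream of chaperone genes. The HSP-16 proteins are small heat shock proteins, which hold unfolding proteins in large oligomers without using ATP. HSP70 proteins bind exposed hydrophobic stretches and release them in cycles of ATP hydrolysis, with J-domain proteins and exchange factors as partners. In C. elegans, hsp-16.2 and its relatives and the inducible HSP70 genes are nearly silent in unstressed animals and are widely used as reporters of the heat shock response.

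The listed genes lie close together and in opposed pairs. On chromosome V of WBcel235 (also named ce11), hsp-16.1 (WBGene00002015, 9087293 to 9087782, minus strand) and hsp-16.48 (WBGene00002019, 9088131 to 9088617, plus strand) point away from each other across 348 bp. Next to them, hsp-16.49 (WBGene00002020, 9089280 to 9089766, minus strand) and hsp-16.11 (WBGene00002017, 9090077 to 9090604, plus strand) do the same across 310 bp, so the cluster is an inverted duplication in which hsp-16.48 and hsp-16.49 face each other across 662 bp. Elsewhere on chromosome V, hsp-16.2 (WBGene00002016, 1804334 to 1804957, minus strand) and hsp-16.41 (WBGene00002018, 1805178 to 1805875, plus strand) form another divergent pair with 220 bp between them. On chromosome II, F44E5.4 (WBGene00009691, 11757107 to 11759311, minus strand) and F44E5.5 (WBGene00009692, 11759662 to 11761861, plus strand) diverge from a gap of 350 bp. The gene hsp-70 (WBGene00002026, 9320325 to 9322519 of chromosome I, minus strand) stands alone among them and overlaps the span of the gene uggt-2. Ensembl gives the name hsp-16.1 to WBGene00002015 and WBGene00002017 alike, and hsp-16.48 to WBGene00002019 and WBGene00002020 alike. The names used here for each ID follow RefSeq, matched by identical positions.

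Reads were shared between the copies of 3 near-identical pairs. Summed over a pair, the counts of hsp-16.1 and hsp-16.11, of hsp-16.48 and hsp-16.49, and of F44E5.4 and F44E5.5 were whole numbers in 15 of 15 libraries (within 0.01), while the counts of hsp-16.48 were whole in only 4 libraries and those of F44E5.4 in only 2 within 1e-06, or 3 within 0.01. The counts of hsp-16.2, hsp-16.41 and hsp-70 were whole in all 15. The division within a pair was thus an estimate, while the sum was a whole count.

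That division differed between the experiments for F44E5.4 and F44E5.5. F44E5.4 received 0.310 to 0.534% of the counts of the pair in P37Stop and 0 to 0.333% in WT batch 2, but 42.5 to 45.5% in S441L, 40.8 to 44.2% in P183L and 29.0 to 44.9% in WT batch 1. In counts, F44E5.4 had 61.6, 65.1 and 83.6 in P37Stop and 0, 0 and 9.99 in WT batch 2. It had 8265, 8288 and 7490 in S441L and 29498, 24665 and 24323 in P183L, against 1894, 1451 and 1269 in WT batch 1. F44E5.4 was thus near 0 in all 6 libraries of one experiment and abundant in all 9 of the other, mutant or WT.

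The division was irregular for hsp-16.48 and hsp-16.49 and fixed for hsp-16.1 and hsp-16.11. The share of hsp-16.49 was 9.72 to 50.5% in P37Stop and 0 to 6.24% in WT batch 2. It was 0 to 42.3% in S441L and 15.96 to 48.2% in P183L, against 0 to 2.30% in WT batch 1. Its counts of 0, 29.5 and 717 in the 3 S441L libraries show how far replicates of one group could differ. By contrast hsp-16.1 received at most 1.38% of its pair in any library, with 0 counts in all S441L and WT batch 2 libraries, so nearly all counts of that pair carry the name hsp-16.11.

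**Figure D1:**
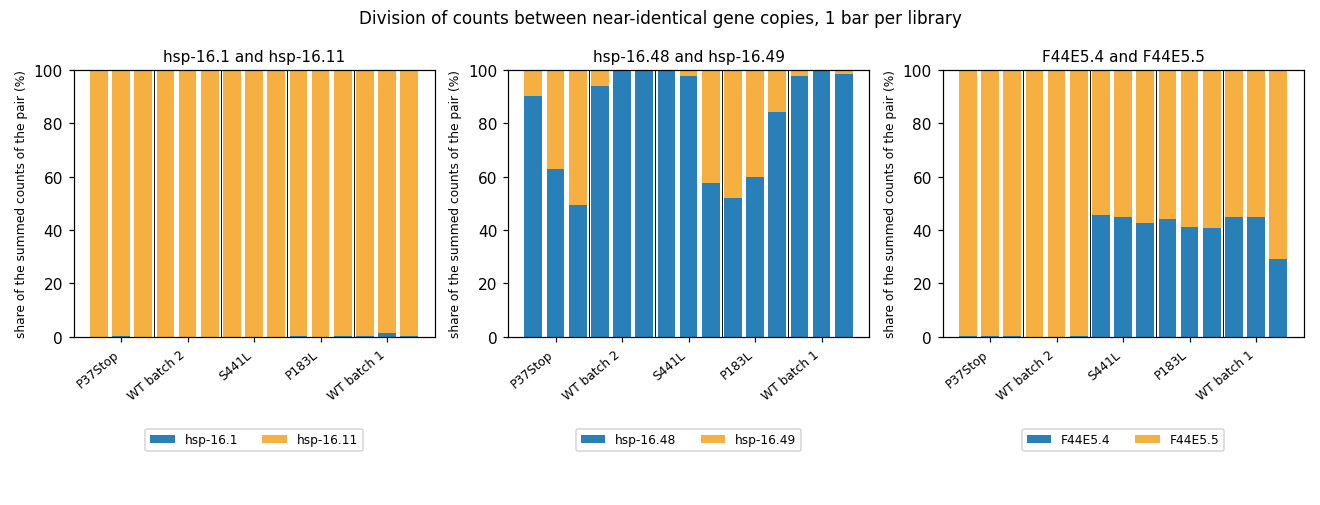
Share (%) of the summed counts of each near-identical pair given to each copy, 1 bar per library with replicates 1 to 3 from left to right in each group. F44E5.4 takes under 1% in P37Stop and WT batch 2 and 29.0 to 45.5% in the other groups, while hsp-16.49 ranges from 0 to 50.5%.

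Per-copy results are given below beside those of the 3 sums, and the 3 sums with hsp-16.2, hsp-16.41 and hsp-70 are called the 6 units. Transcripts of the 9 genes took 0.0489 to 0.0830% of all counts in P37Stop and 0.00964 to 0.0130% in WT batch 2. They took 0.0590 to 0.0613% in S441L and 0.211% in each P183L library, against 0.0142 to 0.0181% in WT batch 1. The mutant ranges lay above those of both WT groups.

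The unit with the most counts was the HSP70 pair F44E5.4 and F44E5.5, whose transcripts are also the longest. Its libraries stood at 464, 265 and 463 CPM in P37Stop, against 98.7, 56.2 and 83.9 CPM in WT batch 2. They stood at 386, 401 and 397 CPM in S441L and at 1384, 1323 and 1317 CPM in P183L, against 111, 106 and 111 CPM in WT batch 1. Every mutant library lay above every WT library, and P37Stop replicate 2 lay well below the other P37Stop libraries. The pair was 5.10-fold higher in P37Stop (log2 fold change 2.35 ± 0.231 SE), 3.73-fold higher in S441L (1.90 ± 0.0412) and 11.9-fold higher in P183L (3.57 ± 0.0457).

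The pair hsp-16.1 and hsp-16.11 had 139, 83.1 and 105 CPM in P37Stop, against 26.4, 22.3 and 21.9 CPM in WT batch 2. It had 91.1, 86.7 and 93.3 CPM in S441L and 175, 186 and 186 CPM in P183L, against 37.6, 30.1 and 33.8 CPM in WT batch 1. The groups did not overlap with their WT in any of the 3 comparisons. Its log2 fold change was 2.24 ± 0.165 in P37Stop, 1.46 ± 0.0701 in S441L and 2.38 ± 0.0689 in P183L (SE).

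The neighbouring pair hsp-16.48 and hsp-16.49, which encodes small heat shock proteins of the same family, varied more between replicates. It had 135, 82.6 and 93.5 CPM in P37Stop, against 20.2, 18.3 and 17.5 CPM in WT batch 2. It had 39.3, 29.5 and 38.1 CPM in S441L and 87.4, 136 and 155 CPM in P183L, against 26.7, 7.63 and 22.5 CPM in WT batch 1. WT batch 1 replicate 2 was low by itself. The log2 fold change was 2.50 ± 0.167 in P37Stop, 0.93 ± 0.283 in S441L and 2.65 ± 0.313 in P183L (SE). Leaving out one library at a time moved the S441L value between 0.57 and 1.23 and the P183L value between 2.29 and 2.95.

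The divergent genes hsp-16.2 and hsp-16.41 had whole counts in every library, with no sign of shared reads. For hsp-16.2, levels were 30.6, 21.4 and 21.2 CPM in P37Stop, against 4.66, 4.64 and 5.28 CPM in WT batch 2. They were 28.7, 29.8 and 27.8 CPM in S441L and 41.7, 40.9 and 39.3 CPM in P183L, against 11.52, 9.92 and 10.6 CPM in WT batch 1. Its log2 fold change was 2.36 ± 0.1799 in P37Stop, 1.47 ± 0.0678 in S441L and 1.88 ± 0.0676 in P183L (SE).

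For hsp-16.41, levels were 24.8, 19.03 and 14.7 CPM in P37Stop, against 3.14, 2.73 and 3.19 CPM in WT batch 2. They were 28.0, 26.2 and 27.2 CPM in S441L and 50.8, 54.7 and 54.4 CPM in P183L, against 9.31, 7.30 and 6.84 CPM in WT batch 1. Mutant and WT libraries were again separate for both genes in all 3 comparisons. The log2 fold change of hsp-16.41 was 2.72 ± 0.213 in P37Stop, 1.84 ± 0.0963 in S441L and 2.72 ± 0.0947 in P183L (SE), each larger than that of hsp-16.2 in the same comparison. Per length, the ratio of hsp-16.41 to hsp-16.2 (a ratio of TPM, which are counts divided by summed exon length and scaled to the same total in every library) was 0.627 to 0.802 in P37Stop and 0.531 to 0.609 in WT batch 2. It was 0.796 to 0.886 in S441L and 1.10 to 1.25 in P183L, against 0.582 to 0.730 in WT batch 1. The gene hsp-16.41 thus exceeded its partner only in P183L, and no mutant range of the ratio overlapped that of its own WT group.

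The gene hsp-70 was the scarcest unit and the one that did not follow the others. Its counts were 311, 234 and 310 in P37Stop, against 91, 30 and 0 in WT batch 2, where 0 counts allow up to 0.0838 CPM (3 counts, counting error only). They were 230, 196 and 184 in S441L and 730, 617 and 674 in P183L, against 199, 188 and 223 in WT batch 1. In CPM, S441L was at 4.89, 4.25 and 4.14 and WT batch 1 at 5.22, 6.16 and 5.65, so that every S441L library lay below every WT library, by a log2 fold change of -0.31 ± 0.132 (SE) that was not called. The log2 fold change was 2.77 ± 0.802 in P37Stop and 1.31 ± 0.0927 in P183L (SE). The P37Stop value rests on low and scattered WT batch 2 counts: it ranged from 2.19 to 4.18 with one library left out and lost its call without P37Stop replicate 1 (2.70), P37Stop replicate 3 (2.66) or WT batch 2 replicate 2 (2.57), and with DESeq2 (2.77). The gene uggt-2, which overlaps hsp-70, had 3.90 to 6.77 CPM in P37Stop and 3.49 to 4.64 CPM in WT batch 2, and 3.42 to 4.38 CPM in S441L and 2.65 to 3.03 CPM in P183L against 4.85 to 5.97 CPM in WT batch 1. Levels of uggt-2 were lowest in P183L, where hsp-70 was highest. Whether the counting used strand is not given in the sources used here.

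**Figure D2:**
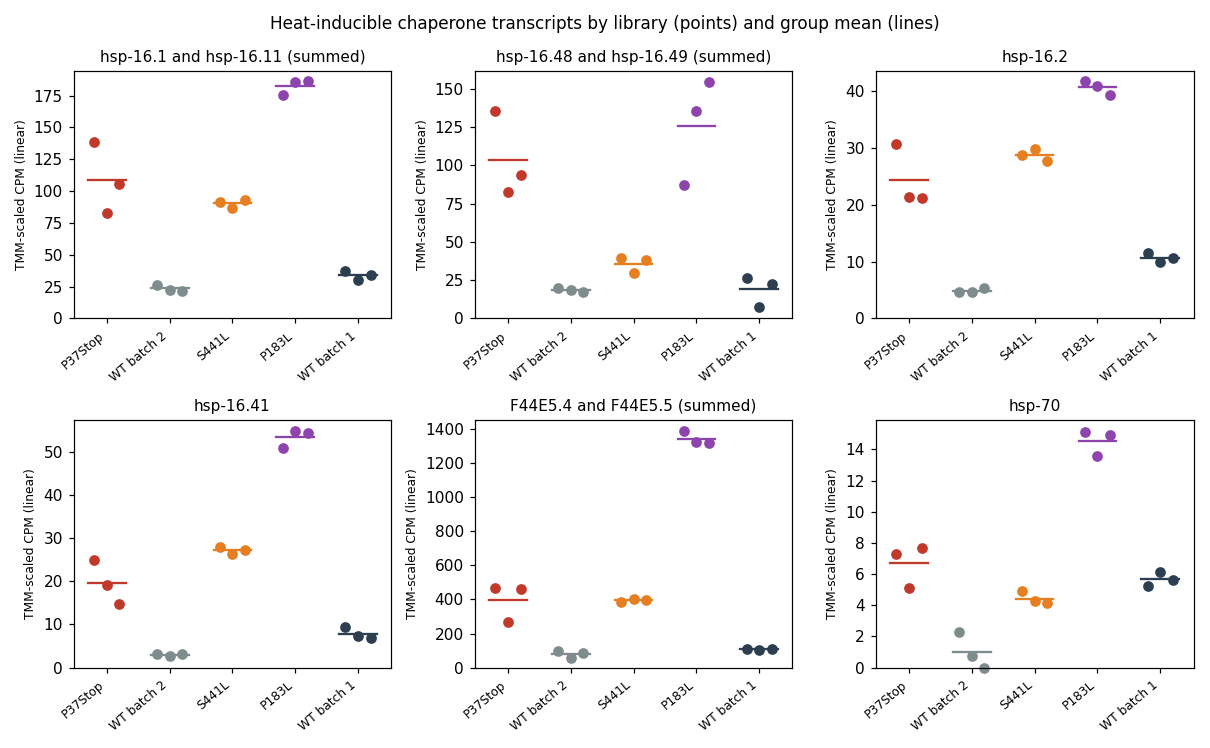
TMM-scaled CPM (linear axes, starting at 0) of the 6 units in each library (points, replicates 1 to 3 from left to right) with group means (lines). Mutant points lie above those of their own WT in every panel except hsp-70, where S441L (4.14 to 4.89 CPM) lies below WT batch 1 (5.22 to 6.16 CPM).

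Set in order by TPM, P183L was the highest group and WT batch 2 the lowest for all 6 units. TPM leave out the TMM factors, which were 1.197 to 1.204 in P183L and 0.851 to 0.902 in WT batch 1. Gaps between P183L and the other groups were therefore wider in TPM than in TMM-scaled CPM. In CPM, F44E5.4 and F44E5.5 together averaged 1341 in P183L and 395 in S441L. F44E5.4 and F44E5.5 together had 1259 ± 28.7 TPM in P183L, 255 ± 5.26 in S441L, 250.4 ± 80.1 in P37Stop, 57.9 ± 3.15 in WT batch 1 and 41.3 ± 9.49 in WT batch 2 (SD, n = 3 each), where S441L and P37Stop overlapped and no other neighbours did. hsp-16.1 and hsp-16.11 together had 753 ± 29.4 TPM in P183L, 299.5 ± 75.3 in P37Stop, 257 ± 13.7 in S441L, 79.2 ± 10.9 in WT batch 1 and 53.9 ± 2.84 in WT batch 2 (SD, n = 3 each), and again only P37Stop and S441L overlapped. hsp-16.48 and hsp-16.49 together had 573 ± 160 TPM in P183L and 314 ± 78.9 in P37Stop, which overlapped, then 112 ± 18.2 in S441L, then 49.3 ± 26.9 in WT batch 1 and 47.2 ± 1.63 in WT batch 2 (SD, n = 3 each), which overlapped as well. The order of P37Stop and S441L thus depended on the unit. For F44E5.4 and F44E5.5 it also depended on the scale, with means of 397 CPM in P37Stop and 395 CPM in S441L. These groups come from different experiments, so their order cannot be told apart from a difference between experiments.

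The levels of the remaining units were lower per length. hsp-16.2 had 138 ± 3.79 TPM in P183L, 67.2 ± 1.24 in S441L, 55.1 ± 10.76 in P37Stop, 20.6 ± 2.10 in WT batch 1 and 9.22 ± 0.964 in WT batch 2 (SD, n = 3 each), with overlap between S441L and P37Stop. hsp-16.41 had 164 ± 7.35 TPM in P183L, 57.4 ± 2.49 in S441L, 39.6 ± 8.67 in P37Stop, 13.6 ± 2.53 in WT batch 1 and 5.15 ± 0.368 in WT batch 2 (SD, n = 3 each), with no overlap between neighbours. hsp-70 had 13.9 ± 0.741 TPM in P183L, 4.28 ± 1.08 in P37Stop, 3.06 ± 0.167 in WT batch 1, 2.91 ± 0.267 in S441L and 0.510 ± 0.575 in WT batch 2 (SD, n = 3 each), and P37Stop, WT batch 1 and S441L overlapped in turn. For hsp-70 the TPM ranges of S441L and WT batch 1 overlapped although their TMM-scaled CPM did not.

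Counted copy by copy in P37Stop versus WT batch 2, 8 of the 9 genes passed the filter on low counts and 8 were called higher, beside 12.7% of the 15780 genes tested, of which a further 5.9% were called lower. In 8 of the 8 every P37Stop library lay above every WT batch 2 library, beside 21.7% of all genes tested, and 22.2% of all genes had the opposite order. A call is an adjusted p below 0.05 in edgeR's quasi-likelihood test with a log2 fold change beyond 0.5 in either direction. The median log2 fold change of the 8 was 2.54, against 0.02 over all genes tested. hsp-16.1 was not tested, with counts of 0, 14.7 and 2.97 in P37Stop and 0 in each WT batch 2 library. Per-copy values departed from those of the sums where a copy was near 0 in WT: hsp-16.49 stood at 6.16 ± 0.860 and F44E5.4 at 4.19 ± 1.05, beside 2.04 ± 0.304 for hsp-16.48 and 2.34 ± 0.231 for F44E5.5 (SE). With one library left out, hsp-16.49 ranged from 5.55 to 13.3 and F44E5.4 from 3.60 to 9.13. The call of F44E5.4 was lost with DESeq2 (4.17) and that of hsp-16.49 with limma's voom (8.82). As 6 units, 6 of 6 were called higher, with a median of 2.43. Requiring more than 1 CPM in every library left 5 genes called higher.

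In S441L versus WT batch 1, 8 genes were tested and 6 were called higher, beside 24.2% of the 15685 genes tested, of which 15.8% were called lower. Every S441L library lay above every WT batch 1 library in 5 of the 8, beside 34.5% of all genes, and below them in 1, hsp-70, beside 36.2% of all genes. The libraries of hsp-16.48 and hsp-16.49 overlapped. Among genes not tested, hsp-16.1 was at 0 in S441L and at 3.73, 12.7 and 3.54 counts in WT batch 1. Their median log2 fold change was 1.62, against 0.03 over all genes. The 2 not called were hsp-70 and hsp-16.48, at 0.71 ± 0.307 (SE). The hsp-16.48 result was borderline. It was called higher under several alternatives, among them voom (0.81), total counts (0.89) and no filter (0.71). It was also called without S441L replicate 3 (0.89) or WT batch 1 replicate 1 (1.01), but not with both WT groups (0.70). The call of hsp-16.49, 4.07 ± 1.42 (SE), rested on S441L replicate 3: without that library its log2 fold change was -0.04. The call was also lost without WT batch 1 replicate 1 (4.83) or replicate 3 (4.11), with DESeq2 (4.15) and with voom (1.44). F44E5.4 was at 2.06 ± 0.117 and F44E5.5 at 1.78 ± 0.0891 (SE). As units, 5 of 6 were called higher, with a median of 1.46, and the pair hsp-16.48 and hsp-16.49 lost its call with DESeq2 at a fold change of nearly the same size, 0.93.

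In P183L versus WT batch 1, all 9 genes were tested and 8 were called higher, beside 40.2% of the 15884 genes tested, and a further 40.2% were called lower. Libraries did not overlap in 8 of the 9, with P183L higher in each, beside 47.2% of all genes higher without overlap and 44.1% lower. The median of the 9 was 2.38, against 0.02 over all genes. The gene not called was hsp-16.1, at 0.71 ± 0.859 (SE). Per copy, hsp-16.49 was at 6.83 ± 0.435, hsp-16.48 at 2.12 ± 0.389, F44E5.4 at 3.67 ± 0.129 and F44E5.5 at 3.51 ± 0.0928 (SE). As units, 6 of 6 were called higher, with a median of 2.51. S441L and P183L share the WT batch 1 libraries, so their values are not independent of each other.

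**Figure D3:**
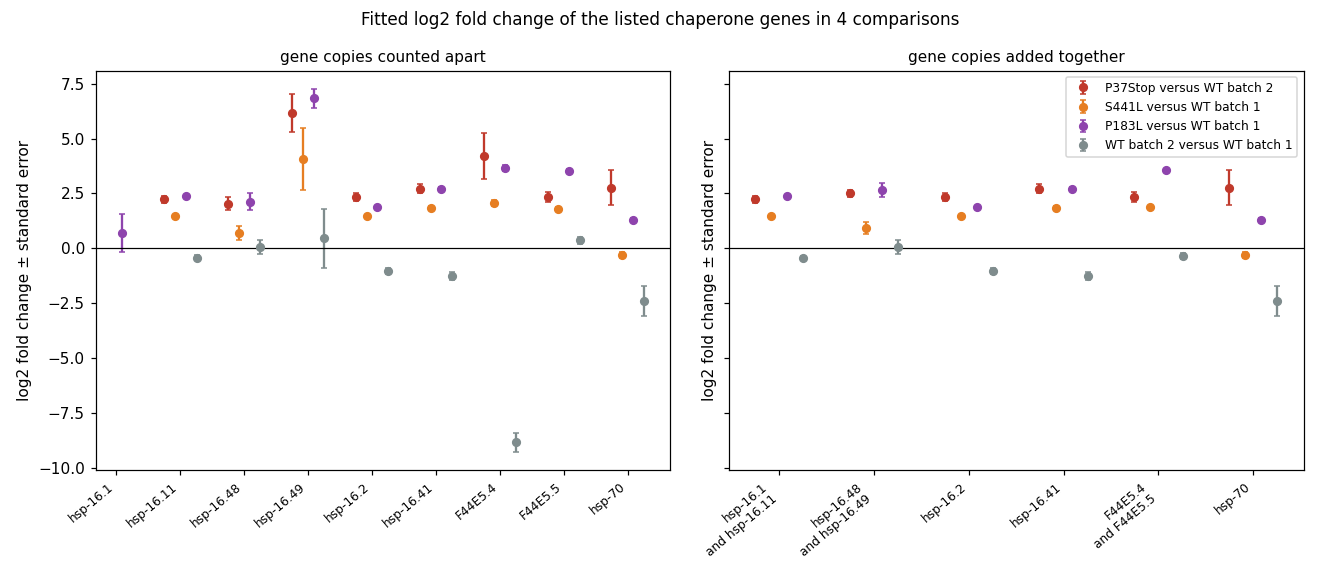
Fitted log2 fold change ± standard error of the listed genes with copies counted apart (left) and added together (right) in 4 comparisons. Added together, the pair F44E5.4 and F44E5.5 moves from an isolated -8.83 for F44E5.4 in WT batch 2 versus WT batch 1 to -0.36, and the values of hsp-16.49 at 6.16 and 6.83 give way to 2.50 and 2.65 for its pair.

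The WT groups differed from each other as well. Copy by copy, 4 of 8 genes tested were called lower in WT batch 2 than in WT batch 1 and none higher, beside 14.3% of the 15408 genes tested called lower and 18.6% called higher. Without overlap, 5 of the 8 were lower and 0 higher, beside 36.3% and 26% of all genes. One of the 4 was F44E5.4 at -8.83 ± 0.429 (SE), whose sum with F44E5.5 was at -0.36 ± 0.146 and not called. The other 3 were hsp-16.2 at -1.04 ± 0.146, hsp-16.41 at -1.27 ± 0.183 and hsp-70 at -2.40 ± 0.693 (SE), genes with whole counts in every library. The hsp-70 call was lost with DESeq2 (-2.44), and its value ranged from -3.80 to -1.86 with one library left out. The pair hsp-16.1 and hsp-16.11 was at -0.43 ± 0.100 and the pair hsp-16.48 and hsp-16.49 at 0.07 ± 0.310 (SE), neither called. The first of these pairs was called lower under total counts (-0.53) and in the fit of all 15 libraries (-0.53). As units, 3 of 6 were called lower in WT batch 2, beside 14.3% of all genes. Without overlap, 5 of 6 units were lower, beside 36.3% of all genes. Experiment, time and any difference between the WT worms cannot be told apart here.

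The WT group that served as control therefore set the size of several fold changes. Against WT batch 1, the control of the other experiment, P37Stop was higher by 1.89 for F44E5.4 and F44E5.5 together, 1.71 for hsp-16.1 and hsp-16.11, 2.47 for hsp-16.48 and hsp-16.49, 1.22 for hsp-16.2 and 1.35 for hsp-16.41 on the log2 scale, all still called, while hsp-70 was at 0.26 and not called. F44E5.4 taken alone turned to -4.68 in that comparison. Against WT batch 2, S441L was higher by 2.29 for F44E5.4 and F44E5.5, 2.54 for hsp-16.2, 3.14 for hsp-16.41 and 2.12 for hsp-70, so hsp-70 in S441L was called higher against one WT group and lay below the other.

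Chaperone and stress genes outside the 9 were followed in 7 lists, 83 genes in all, chosen by name. Their p-values are from the same edgeR quasi-likelihood tests with Benjamini-Hochberg adjustment over all genes tested. The list counts below stand beside the shares of all genes tested. Those were 12.7% called higher and 5.9% lower in P37Stop, 24.2% and 15.8% in S441L, and 40.2% and 40.2% in P183L. Of 11 other small heat shock proteins, 5 were called higher and 1 lower in P37Stop, 4 higher and 2 lower in S441L, and 3 higher and 7 lower in P183L, with median log2 fold changes of 0.55, 0.40 and -2.45. F08H9.4 rose in P37Stop, to 15.9 ± 3.16 CPM against 1.36 ± 1.01 CPM in WT batch 2 (SD, n = 3 each; log2 fold change 3.55 ± 0.417 SE, edgeR adjusted p = 0.00018), and in S441L, to 10.6 ± 0.262 CPM against 2.06 ± 0.140 CPM in WT batch 1 (2.40 ± 0.123 SE, edgeR adjusted p = 2.2e-09), but fell in P183L (-2.45 ± 0.258 SE, edgeR adjusted p = 1.4e-06). The germline small heat shock gene sip-1 rose to 90.8 ± 48.7 CPM in P37Stop, against 21.7 ± 12.8 CPM in WT batch 2 (2.10 ± 0.402 SE, edgeR adjusted p = 0.0032), and to 153 ± 2.60 CPM in P183L, against 35.3 ± 4.59 CPM in WT batch 1 (2.07 ± 0.0689 SE, edgeR adjusted p = 1.3e-11). The gene hsp-12.6, a target of the insulin pathway factor DAF-16, fell in S441L (-2.34 ± 0.0796 SE, edgeR adjusted p = 4.7e-11) and in P183L (-7.16 ± 0.125 SE, edgeR adjusted p = 3.4e-14). It was also lower in WT batch 2 than in WT batch 1 (-2.27 on the log2 scale), and against WT batch 2 the S441L value was -0.03 and not called. These relatives of the HSP-16 proteins thus moved in different directions where the HSP-16 units did not.

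Of 18 constitutive cytosolic HSP70, HSP90 and partner genes, 5 were called higher in P37Stop, 6 in S441L and 11 in P183L, and none, none and 1 lower. The constitutive HSP70 gene hsp-1 rose to 857 ± 17.1 CPM in P37Stop, against 566 ± 77.2 CPM in WT batch 2, and to 1235 ± 27.6 CPM in S441L, against 591 ± 34.6 CPM in WT batch 1 (SD, n = 3 each; 0.63 ± 0.104 and 1.11 ± 0.0443 SE on the log2 scale, edgeR adjusted p = 0.0014 and 1.9e-10). In P183L it had 816 ± 9.59 CPM and a log2 fold change of 0.42 ± 0.0443 SE, below the threshold. The exchange factor hsp-110 and the J-domain gene dnj-13 were called higher in all 3 mutants, hsp-110 most in S441L (1.13 ± 0.0388 SE, edgeR adjusted p = 5.1e-11) and dnj-13 most in P183L (2.06 ± 0.0412 SE, edgeR adjusted p = 1.1e-13). The exchange factor gene bag-1 rose in P37Stop (1.02 ± 0.155 SE, edgeR adjusted p = 0.00085) by the most in this list. In S441L the exchange factor gene unc-23 rose by the most in this list (1.23 ± 0.0520 SE, edgeR adjusted p = 3.2e-10). The HSP90 gene daf-21 was called in no mutant. Unlike the others, hsp-1, daf-21 and, below, hsp-3 were named after their values were seen.

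In the list of HSF-1 and its regulators, 3 genes were called higher and 1 lower in P183L, and none was called in P37Stop or S441L, where smaller differences passed the adjusted p but not the fold threshold. The gene hsf-1, which encodes the heat shock factor itself, had 62.2 ± 2.48 CPM in P37Stop and 58.5 ± 3.93 CPM in WT batch 2, and 67.4 ± 1.18 CPM in S441L and 104 ± 0.962 CPM in P183L, against 60.3 ± 0.682 CPM in WT batch 1 (SD, n = 3 each). It was called higher in P183L (0.74 ± 0.0382 SE, edgeR adjusted p = 1.1e-09) and not in P37Stop (0.12 ± 0.0868 SE, edgeR adjusted p = 0.36) or S441L (0.20 ± 0.0423 SE, edgeR adjusted p = 0.00094). Its inhibitor gene hsb-1 was called higher in P183L (1.48 ± 0.0729 SE, edgeR adjusted p = 6.6e-10) and had 0.47 ± 0.103 SE in P37Stop (edgeR adjusted p = 0.0067) and -0.25 ± 0.0797 SE in S441L (edgeR adjusted p = 0.014), with no overlap of libraries in either. In P183L, daf-16 fell (-1.30 ± 0.0497 SE, edgeR adjusted p = 5.4e-11). Of the 6 genes of this list, 5 were tested.

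Of 16 genes of endoplasmic reticulum chaperones and the unfolded protein response, 4 were called higher in P37Stop, 3 in S441L and 12 in P183L, and none, 2 and 1 lower, with medians of 0.15, 0.15 and 1.29. The BiP gene hsp-4, an HSP70 of the endoplasmic reticulum, rose in all 3 mutants: to 117 ± 11.54 CPM in P37Stop against 39.3 ± 2.11 CPM in WT batch 2, and to 124 ± 1.84 CPM in S441L and 257 ± 2.62 CPM in P183L against 65.5 ± 2.36 CPM in WT batch 1 (SD, n = 3 each; log2 fold changes 1.60 ± 0.0953, 0.97 ± 0.0433 and 1.92 ± 0.0390 SE, edgeR adjusted p = 3.9e-06, 5.5e-10 and 1.3e-13). Its constitutive counterpart hsp-3 was called higher only in P183L, at 2366 ± 46.0 CPM against 457 ± 18.4 CPM in WT batch 1 (SD, n = 3 each), with 0.07 in P37Stop and 0.37 in S441L on the log2 scale. The largest change in this list was dnj-27 in P183L (3.84 ± 0.0560 SE, edgeR adjusted p = 8.6e-15), whose counts were whole in only 7 libraries. The transcription factor gene xbp-1 fell in P183L (-0.86 ± 0.0360 SE, edgeR adjusted p = 1.2e-10).

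Of 10 mitochondrial genes, 1 was called higher in P37Stop (ubl-5), 1 in S441L (hsp-60) and 3 in P183L, where 3 were also called lower, hsp-6 among them (-1.59 ± 0.0416 SE, edgeR adjusted p = 1.3e-12). The hsp-60 calls depended on WT batch 1, since hsp-60 was 1.83 ± 0.112 (SE) higher in WT batch 2 than in WT batch 1 on the log2 scale, and against WT batch 2 it was at -0.44 in S441L and -0.19 in P183L. Of 8 CCT genes none was called in P37Stop, cct-8 was called higher and cct-7 lower in S441L, and 6 were called lower and 1 higher in P183L. Of the metal and oxidative stress genes other than numr-1 and numr-2, 12 were tested: 2 were called higher and 2 lower in P37Stop, 6 higher and 4 lower in S441L, and 11 lower in P183L, where the median was -3.17. The catalase genes ctl-1 and ctl-2 were called lower in all 3 mutants, but their counts were not whole in any library, so their reads may be divided between them. In P37Stop both calls were lost without WT batch 2 replicate 3 (-0.55 for ctl-1 and -0.66 for ctl-2), and that of ctl-1 also under total counts (-0.42). Over all 80 related genes tested, without numr-1 and numr-2, 17 were called higher and 3 lower in P37Stop, 21 and 9 in S441L and 33 and 30 in P183L. Among all genes tested, 12.7% were called higher and 5.9% lower in P37Stop, 24.2% and 15.8% in S441L, and 40.2% and 40.2% in P183L.

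**Figure D4:**
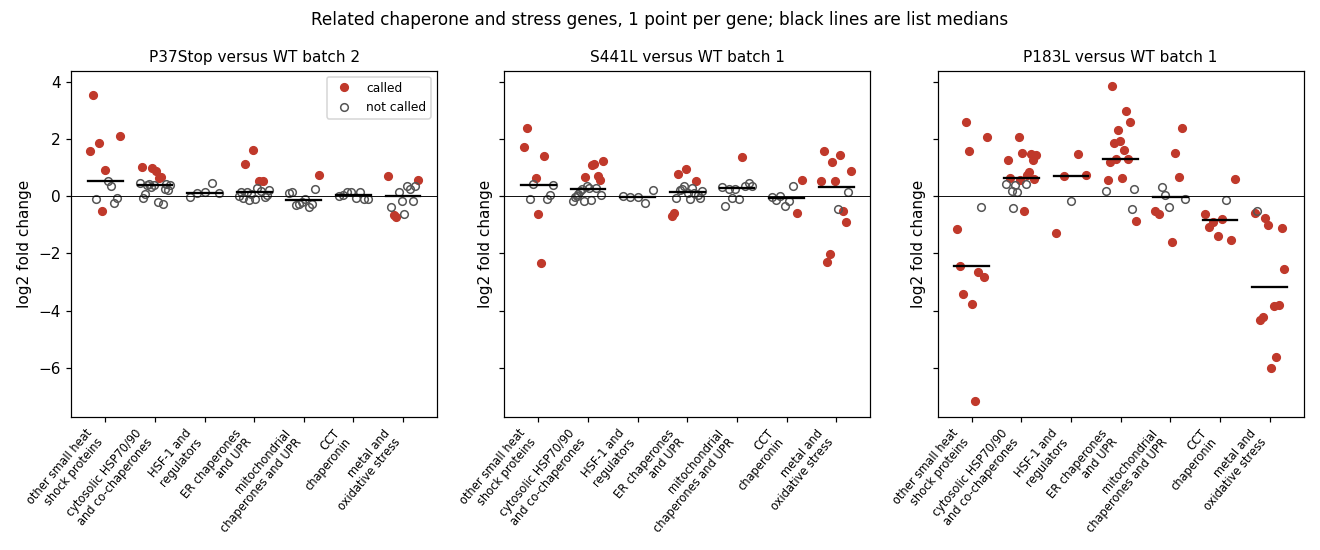
Log2 fold change of the related genes by list in each mutant versus its own WT group, 1 point per gene (filled, called; open, not called), with list medians as lines and numr-1 and numr-2 left out. In P183L the medians lie at 1.29 for endoplasmic reticulum genes, -2.45 for other small heat shock genes and -3.17 for metal and oxidative stress genes, while in P37Stop and S441L all list medians lie between -0.15 and 0.55.

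Among 13815 genes with a mean of at least 1 CPM, the gene most like the mean of the 6 units in log2-CPM over the 15 libraries was hsp-4, the BiP gene above (Pearson r = 0.979). It was followed by mltn-12 (0.978), lido-11 (0.974), R107.5 (0.973) and R02F11.1 (0.968), all lowest in WT batch 2 and highest in P183L. The level of mltn-12 was 4.55 ± 1.82 CPM in P37Stop, against 0.720 ± 0.253 CPM in WT batch 2, and 12.99 ± 2.17 CPM in P183L, against 1.16 ± 0.410 CPM in WT batch 1 (SD, n = 3 each). These likenesses rest mostly on the 5 group means, which the libraries of a group share. With each group's mean subtracted, the nearest genes were T25E4.1 (0.924), ceh-99 (0.923), nhr-127 (0.918), F16H6.10 (0.917) and WBGene00020295 (0.911), none of them among the first 5, and hsp-4 had 0.653. Without that subtraction their r was 0.463, 0.943, 0.908, -0.613 and 0.348 in the same order, so F16H6.10 ran against the 6 units over all libraries. These 5 are the highest of 13815 genes over few libraries, and their likeness was not tested.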

How the data were processed

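PolyA RNA of whole starved L1s was sequenced in 15 libraries, 3 in each of 5 groups. The authors deposited a table of expected counts (estimated counts per gene, 3.70% of them not whole) for 46911 genes. The submitters' notes name fastp, STAR, Picard, HTSeq and DESeq2 and the study's methods also Salmon, with the ce11 genome; the route that made the table is not given in the sources used here. Expected counts were rounded. A line without a gene ID, equal to the total of its column, was left out. Gene names came from Ensembl release 115 (46857 IDs matched, 54 did not) and, for the hsp-16 copies, from RefSeq by position.

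Each comparison was fitted on its own libraries in R 4.3.3 with edgeR 4.0.16 (quasi-likelihood test, filterByExpr with a minimum count of 10, TMM scaling), with Benjamini-Hochberg adjustment over all genes tested. Calls needed both an adjusted p under 0.05 and a fold change over 0.5, or under -0.5, in log2 units. The standard error was the fold change divided by the square root of F. The fit was repeated with the counts of near-identical copies added. The tests were first tried on simulated data. Alternatives were DESeq2 1.42.0, limma 3.58.1 with voom, other scalings and filters, a fit of all 15 libraries, a replicate block, the other WT group and leaving out each library.

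All 9 genes are described. From each related list and comparison, the 2 called genes with the largest increase and the 2 with the largest decrease were eligible for naming if libraries did not overlap and the higher group had at least 10 CPM, with hsf-1 and hsb-1 always; for likeness, 2 was the prior count added before logs. The members and lists were chosen with earlier results of these data known. Separate plates gave the replicates of a group, so p-values cover the spread between plates. Counting intervals and floors cover counting error only. Promoter and protein sequences were not analysed here.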

Additional observations from a re-analysis of the deposited data

Results flagged for a closer look

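Several named related genes had every library above WT in one mutant and every library below WT in another. The difference of their log2 fold changes was tested in a fit of all 15 libraries (edgeR's quasi-likelihood test). The genes were picked by that order in the same libraries, so a difference from 0 was fixed in advance and is given as description. Not every side was called: hsp-17 was at 0.36 in P37Stop. Among small heat shock genes, P37Stop minus S441L came to -1.11 for hsp-12.2 and 1.58 for hsp-12.3. WT batch 2 itself differed from WT batch 1 by 2.48 for hsp-12.2 and -2.08 for hsp-12.3, so these differences depend on the WT groups. The P37Stop call of hsp-12.2 (-0.51) was lost under upper quartile scaling (-0.48) and total counts (-0.29). It was also lost without P37Stop replicate 2 or 3 or WT batch 2 replicate 1. P37Stop minus P183L came to -2.18 for hsp-12.2, 4.64 for hsp-12.3, 2.92 for hsp-17 and 5.93 for F08H9.4. S441L minus P183L came to 3.95 for hsp-17 and 4.75 for F08H9.4. F08H9.4 was thus higher in P37Stop and S441L and lower in P183L, each against its own WT group.

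For the HSF-1 inhibitor gene hsb-1, not called in P37Stop (0.47) or S441L (-0.25), the difference was 0.74 between P37Stop and S441L. Between S441L and P183L it was -1.83. For the unfolded protein response gene xbp-1 the difference was 1.02 between P37Stop and P183L and 0.96 between S441L and P183L. Its P37Stop (0.23) and S441L (0.19) values were below the threshold. Between S441L and P183L, atf-6 differed by -0.96, with a P183L value below the threshold (0.18), and cnx-1 by -1.26. Among metal and oxidative stress genes, aip-1 and sod-3 differed by 1.22 and 3.03 between P37Stop and P183L and by 1.01 and 3.33 between S441L and P183L. The last comparison also held gst-4 at 5.18 and gcs-1 at 1.85. The comparisons of S441L and P183L use the same WT batch 1 libraries.

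For hsp-70, every S441L library lay below every WT batch 1 library in TMM-scaled CPM (log2 fold change -0.31). P37Stop and P183L lay above their own WT groups in every library. Mean counts were 203 in S441L and in WT batch 1 alike, and the TPM ranges of these groups overlapped. Against WT batch 2, S441L was higher (2.12). The difference between mutants was not tested for hsp-70, which was among the genes chosen for their levels.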

How the results depend on the processing

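Of the log2 fold changes of the 9 genes, 319 kept direction and side of the threshold under the alternatives. Of the rest, 10 were reversed, 12 lost their call and 8 gained one. With one library left out, 184 kept both, 4 were reversed, 5 lost their call and 5 gained one. For the related genes under the naming rule, 744 kept both under the alternatives (11 reversed, 29 lost, 2 gained). With one library left out, 396 did (2 reversed, 9 lost, 1 gained). For the 3 summed pairs, 121 kept both (2 reversed, 1 lost, 2 gained), and 68 with one library left out (1 reversed, 3 gained). With total counts as the scaling, which moved the median of all genes to 0.24 in P37Stop, 0.21 in S441L and 0.53 in P183L, related genes called in P37Stop went to 28 higher and 1 lower (17 and 3 with TMM), and 4 were lower in S441L (9 with TMM). Requiring more than 1 CPM in every library left 5 of the 9 genes called higher in P37Stop (otherwise 8) and 2 called lower in WT batch 2 (otherwise 4), and 8409 genes called in P183L (otherwise 12768). With no filter, and in the fit of all 15 libraries, 1 of the 9 genes was called lower in S441L, against 0.

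With the WT group of the other experiment, P37Stop had 1 of the 9 genes lower (F44E5.4, at -4.68), 10 related genes lower, hsp-12.2 at 1.87 and 5857 genes called (otherwise 2931). S441L then had 4 related genes lower, hsp-70 at 2.12, hsp-12.3 at 1.47 and hsp-60 at -0.44, and P183L had hsp-60 at -0.19. With both WT groups, F44E5.4 was at -3.69 and hsp-12.2 at 0.16 in P37Stop, and S441L had 3 related genes lower, hsp-70 at 0.44, hsp-12.3 at 0.061 and 4025 genes called (otherwise 6270). With voom, hsp-16.1 was at -0.31 in P183L and hsp-16.49 at -1.43 between the WT groups. The cause was not tested.

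Between the WT groups, values near 0 changed sign. Under upper quartile scaling hsp-16.48 was at -0.0048 and hsf-1 at -0.0054. Under total counts hsp-16.48 was at -0.048, its pair at -0.041, hsf-1 at -0.039 and hsb-1 at -0.035, and in the fit of all 15 libraries at -0.044, -0.036, -0.044 and -0.038 in the same order. Leaving out one library gave -0.33 to 0.36 for hsp-16.48, -6.58 to 1.24 for hsp-16.49, -0.32 to 0.37 for the pair, -0.028 to 0.075 for hsf-1, -0.048 to 0.12 for hsb-1, and 0 to 1 of the 9 genes called higher (F44E5.5, without WT batch 2 replicate 2). In P37Stop it gave 1 to 4 related genes lower (1 without WT batch 2 replicate 3), and in S441L -0.04 to 4.83 for hsp-16.49.

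Replicate numbers did not pair the libraries: same-numbered deviations correlated at -0.226 to 0.122. With a replicate block, 8, 7, 8 and 0 of the 9 genes were called higher in P37Stop, S441L, P183L and WT batch 2, and 0, 0, 0 and 4 lower. Related genes were called higher in 17, 21, 33 and 7 cases and lower in 4, 9, 31 and 14. Counts of related genes called under other processing include numr-1 and numr-2, unlike the totals given earlier. hsp-16.49 was then at -0.55 between the WT groups. In WT batch 2, hsp-70 had few and scattered counts (91, 30 and 0). Those libraries held 40432436 to 47820216 counts, beside 35858225 to 44870027 in WT batch 1. F44E5.4 had 0 to 9.99 counts in WT batch 2, where its pair with F44E5.5 had 2347 to 3962.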

Other observations

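The metal-responsive genes numr-1 and numr-2 showed a division of counts like that of the chaperone copies. In WT batch 2 all counts of the pair were on numr-1 and in WT batch 1 all were on numr-2, while the pair together had 433 to 683 counts in WT batch 2 and 461 to 544 counts in WT batch 1. Together they had 1678 to 2326 counts in P37Stop. They had 746 to 889 counts in S441L and 81 to 93 counts in P183L. They were left out of the counts of their list, but not of the counts of related genes under other processing.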
